A study of Mus musculus with 32 samples.

Results

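Stand-alone long noncoding RNA (lncRNA) promoters were taken from the GENCODE M21 annotation of the mm10 mouse genome. A gene was included when its type was lincRNA, antisense or processed_transcript and its transcription start site (TSS) lay more than 5 kb from every protein-coding TSS. The promoter window ran from 1 kb upstream to 500 bp downstream of that TSS. This gave 6873 of the 9603 annotated genes of the 3 types, of 55413 annotated genes in all. They comprised 5143 lincRNA, 1366 antisense and 364 processed_transcript genes. The other 2730 genes of these types had a TSS within 5 kb of a coding TSS and served for comparison, together with the 21938 protein-coding genes. The closest stand-alone TSS lay 5002 bp from a coding TSS, and the nearest one left out lay at 4987 bp. The median distance was 57.4 kb, with quartiles at 20.7 and 157 kb. The TSS lay outside every coding gene body in 5606 cases, inside one on the opposite strand in 1179 and on the same strand in 88. Some windows overlapped, so the 6873 windows formed 6727 distinct stretches.

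ChIP-seq, which sequences the DNA bound to a marked histone, had been run on primary mouse leukemias driven by the *MLL-AF9* fusion oncogene. Lineage-depleted bone marrow cells carrying floxed *Kat2a* alleles were transduced with an *MLL-AF9* retrovirus and grown in lethally irradiated mice. Both donor genotypes had been given pIpC 4 to 6 weeks earlier, which induces the Mx1-Cre transgene where it is present. The KO donors were Mx1-Cre+/- and the WT donors Mx1-Cre-/-. Bone marrow of terminal animals was pooled, 5 for WT and 4 for KO. The marrow can hold some cells of the irradiated host. Replicates 1 and 2 were separate cell samples and chromatin preparations of the same pools, so the spread between them does not contain the variation between leukemias. H3K4me3 and H3K9ac were analysed in 2 libraries per genotype, and H3K27ac and H3K4me1 in replicate 2 of each genotype only. Cells per condition numbered 5000000 for H3K4me3 and H3K9ac and 500000 for H3K27ac and H3K4me1, so the marks were profiled from unlike amounts of material.

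Long noncoding RNAs are transcribed by RNA polymerase II without a long reading frame. They include scaffolds of nuclear bodies, regulators of X inactivation and imprinting, and host transcripts of microRNAs and small nucleolar RNAs (snoRNAs). H3K4me3 marks the starts of active or poised genes, H3K9ac and H3K27ac mark active promoters and enhancers, and H3K4me1 without H3K4me3 is typical of enhancers. Kat2a is a histone acetyltransferase that deposits H3K9ac.

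Some of the promoters on which the results turn are printed here from the RefSeq sequence of GRCm38.p6, the same build as mm10. Each stretch has 300 bases and is written in the direction of transcription. The TSS is base 251, and capitals mark CG dinucleotides. The first 3 had both H3K4me3 and H3K9ac in all 8 libraries and are shown as examples of uncharacterized, host and nuclear transcripts.
*6720427I07Rik*, chr13:48546451-48546750, minus strand: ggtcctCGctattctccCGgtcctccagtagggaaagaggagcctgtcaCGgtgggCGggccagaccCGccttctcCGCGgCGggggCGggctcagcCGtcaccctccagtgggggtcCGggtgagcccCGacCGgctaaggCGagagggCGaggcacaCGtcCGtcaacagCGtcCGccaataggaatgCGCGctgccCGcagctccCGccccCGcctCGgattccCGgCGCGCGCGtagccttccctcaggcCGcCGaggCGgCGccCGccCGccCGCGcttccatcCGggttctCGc
*Dleu2*, chr14:61682324-61682623, minus strand: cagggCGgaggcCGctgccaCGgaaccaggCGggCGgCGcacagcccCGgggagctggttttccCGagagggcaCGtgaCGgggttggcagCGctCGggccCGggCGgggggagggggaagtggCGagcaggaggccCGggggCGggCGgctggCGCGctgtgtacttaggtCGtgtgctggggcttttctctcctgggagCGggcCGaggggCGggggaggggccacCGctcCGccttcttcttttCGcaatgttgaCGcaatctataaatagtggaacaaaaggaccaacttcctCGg
*Malat1*, chr19:5802623-5802922, minus strand: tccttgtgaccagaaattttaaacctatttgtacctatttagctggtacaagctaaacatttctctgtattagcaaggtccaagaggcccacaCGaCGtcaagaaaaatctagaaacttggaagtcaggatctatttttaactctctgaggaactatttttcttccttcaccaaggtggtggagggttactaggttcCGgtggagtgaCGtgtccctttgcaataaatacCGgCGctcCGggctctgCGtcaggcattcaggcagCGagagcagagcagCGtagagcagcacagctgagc
The next is a microRNA host. *Mir124a-1hg* carried H3K4me3 without H3K9ac.
*Mir124a-1hg*, chr14:64587081-64587380, plus strand: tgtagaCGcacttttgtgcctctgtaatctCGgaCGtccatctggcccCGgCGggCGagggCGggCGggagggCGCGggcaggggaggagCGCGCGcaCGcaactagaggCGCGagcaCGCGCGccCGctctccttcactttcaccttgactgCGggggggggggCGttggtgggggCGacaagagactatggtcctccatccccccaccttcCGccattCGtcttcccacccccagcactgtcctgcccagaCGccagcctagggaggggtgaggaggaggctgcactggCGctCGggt
The last pair stand for other patterns. *Gm42435* had enhancer marks without H3K4me3, and *4632415L05Rik* had the lowest H3K9ac rank in KO relative to WT.
*Gm42435*, chr5:3500023-3500322, minus strand: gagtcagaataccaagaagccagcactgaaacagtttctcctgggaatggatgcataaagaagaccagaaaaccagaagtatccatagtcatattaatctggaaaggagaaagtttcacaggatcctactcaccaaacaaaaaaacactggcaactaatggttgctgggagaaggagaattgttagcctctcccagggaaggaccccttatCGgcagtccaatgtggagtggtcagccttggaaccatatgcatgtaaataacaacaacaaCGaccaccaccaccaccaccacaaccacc
*4632415L05Rik*, chr3:19894636-19894935, plus strand: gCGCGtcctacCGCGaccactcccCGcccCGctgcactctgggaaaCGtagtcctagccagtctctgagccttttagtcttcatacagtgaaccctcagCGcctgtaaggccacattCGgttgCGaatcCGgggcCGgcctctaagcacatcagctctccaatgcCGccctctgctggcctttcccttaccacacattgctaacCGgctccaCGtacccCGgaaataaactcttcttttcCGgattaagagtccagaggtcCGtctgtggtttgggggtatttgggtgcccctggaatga
The number of CG dinucleotides in these stretches was 40 for *6720427I07Rik*, 29 for *Dleu2* and 10 for *Malat1*. It was 28 for *Mir124a-1hg*, and *Gm42435* had 2, against 18 in *4632415L05Rik*.

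The lists differed in size. They held 15685 to 23297 peaks for H3K4me3 and 27657 to 33605 for H3K9ac. The replicate 2 lists of H3K27ac held 29757 peaks in WT and 46047 in KO, and those of H3K4me1 held 45770 and 78042. No list holds read counts, so the depth is unknown and a window without a peak is not shown to lack the mark. As a check of the tissue, the promoters of the myeloid genes *Spi1*, *Cebpa* and *Itgam* had H3K9ac in all 4 libraries, *Elane* in 3, *Mpo* in 1 and *Csf1r* in none, while H3K4me3 was in all 4 libraries at *Cebpa* alone, in 3 at *Itgam*, in 2 at *Spi1* and *Elane*, in 1 at *Mpo* and in none at *Csf1r*. None of 4 B cell, 4 T cell, 4 stromal and 4 non-marrow marker promoters had H3K9ac in any library, although the stromal marker *Cxcl12* had H3K4me3 in all 4. Of 4 erythroid markers *Klf1* had H3K9ac in 2 libraries, *Epor* in 1, and *Gata1* and *Hba-a1* in none. The promoter of *Kat2a* itself had H3K4me3 and H3K9ac in all 4 libraries of each mark, and a promoter peak does not read out the deletion. The genotypes also differed in sex-linked signal. The Y-linked coding promoters of *Kdm5d*, *Eif2s3y*, *Uty* and *Ddx3y* had H3K9ac in both KO libraries, and in WT *Uty* had it in replicate 1 and none of the 4 had it in replicate 2. The labels used here do not give the sex of the donors, so genotype and the sex of the pooled cells cannot be told apart at sex-linked genes.

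Few of the stand-alone lncRNA promoters were marked. A window counted as marked when at least 1 bp of a peak lay in it. H3K4me3 marked 5.35% (95% Wilson interval from 4.85 to 5.91) and 3.01% (2.63 to 3.44) of them in WT replicates 1 and 2, and 3.71% (3.29 to 4.18) and 3.94% (3.51 to 4.43) in KO. H3K9ac marked 7.59% (6.99 to 8.25) and 7.36% (6.77 to 8.0) in WT, while the KO values were 6.01% (5.47 to 6.60) and 6.26% (5.71 to 6.85). H3K27ac marked 5.35% in WT and 8.10% (7.48 to 8.77) in KO. For H3K4me1 the WT share was 5.19% (4.69 to 5.74) and the KO share 9.84% (9.15 to 10.6). These intervals reflect counting error only and treat windows as independent, which overlapping windows are not.

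**Figure D1:**
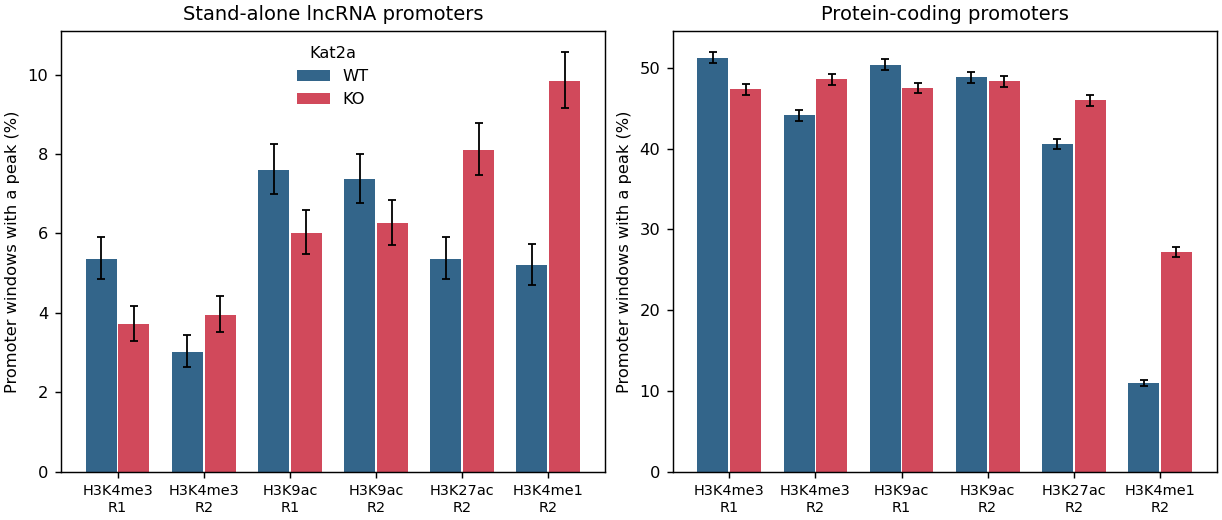
Percent of promoter windows with a peak (y axis) in each library, for 6873 stand-alone lncRNA promoters (left) and 21938 protein-coding promoters (right, with a taller axis). Blue bars are *Kat2a* WT, red bars KO, R1 and R2 are replicates, and error bars are 95% Wilson intervals. The lncRNA bars lie between 3.01 and 9.84%, and for H3K9ac both WT bars stand above both KO bars.

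Protein-coding promoters were marked 9.57 to 14.6 times as often for H3K4me3 and 6.63 to 7.90 times as often for H3K9ac in the same libraries. The share of stand-alone lncRNA promoters was lower by 43.8 ± 2.04 percentage points for H3K4me3 and by 41.9 ± 0.641 points for H3K9ac (SD of the within-library difference, n = 4). All 4 libraries of each mark had this direction, with p = 0.13 in the two-sided exact sign-flip permutation test, the smallest that 4 libraries allow. The lncRNAs with a TSS near a coding TSS were marked more like the coding genes, with H3K4me3 on 37.5 to 45.1% and H3K9ac on 41.7 to 44.6%. The stand-alone share was lower than theirs by 37.2 ± 2.20 points for H3K4me3 and 36.3 ± 0.540 points for H3K9ac, again with an exact sign-flip permutation p of 0.13. A window near a coding TSS can hold the peak of the coding promoter itself. Peaks of the lncRNA and of its coding neighbor were not told apart.

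The peaks present at stand-alone lncRNA promoters were also weaker and narrower than those at coding promoters. Strength is given as the fold enrichment of the strongest peak in the window, as the authors' peak caller reports it, or as the percentile of that fold among all peaks of the same list. The median percentile was 44.8 ± 4.62 for H3K4me3 against 71.4 ± 3.65 at coding promoters, and 56.7 ± 1.98 for H3K9ac against 81.1 ± 1.43 (SD over 4 libraries). Median peak widths were 576 ± 67.0 bp against 860 ± 164 bp for H3K4me3, and 700.0 ± 87.4 bp against 1212 ± 99.3 bp for H3K9ac. The exact sign-flip permutation p was 0.13 for each of these differences, the smallest that the 4 libraries allow.

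Of the stand-alone lncRNA promoters, 1043 (15.2%) had a peak in at least 1 of the 12 libraries and 5830 (84.8%) had none. Among coding promoters 42.1% had none. H3K4me3 was found in at least 1 library at 414 and in all 4 at 165. H3K9ac was found in at least 1 at 663 and in all 4 at 319. At 148 promoters (2.15%, 1.84 to 2.52) both marks were present in all 8 libraries, in 138 distinct stretches. The same share was 33.8% for lncRNAs near a coding TSS and 40.8% for coding genes. Of these 148, 122 also had H3K27ac in both genotypes, 16 in KO and not WT, 1 in WT and not KO, and 9 in neither. Of the 8942 coding promoters with both marks in all 8, 657 had H3K27ac in KO and not WT and 32 in WT and not KO. H3K27ac came from 1 library per genotype, and the KO list was the longer.

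Where H3K4me3 was present in all 4 libraries, absence of H3K9ac was rare. Of the 165 promoters with H3K4me3 in all 4 libraries, 1 had no H3K9ac peak in any library, and that was *Mir124a-1hg*. The reverse was more frequent, since 51 of the 319 promoters with H3K9ac in all 4 libraries had no H3K4me3 peak at all. Of those 51, 34 had H3K4me1 in both genotypes. Among the 119 promoters with H3K4me3 in 1 library, 42 had no H3K9ac peak. Of the 9266 coding promoters with H3K4me3 in all 4 libraries, 37 had no H3K9ac peak.

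Transcript type and place in the genome went with the marks. Of the processed_transcript genes 10.2% (7.46 to 13.7) carried both marks in all 8 libraries, against 1.77% (1.44 to 2.17) of lincRNA and 1.46% (0.950 to 2.25) of antisense genes. Genes with a TSS 5 to 10 kb from a coding TSS had both marks in 4.15% (2.90 to 5.89), and those 50 to 100 kb away in 2.17% (1.49 to 3.13). Beyond 200 kb the share was 0.299% (0.116 to 0.765). On chromosome Y none of 551 promoters had a peak in these libraries, and of 132 on chromosome X 3 had both marks in all 8. No test was made over genes, which are not replicates.

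**Figure D2:**
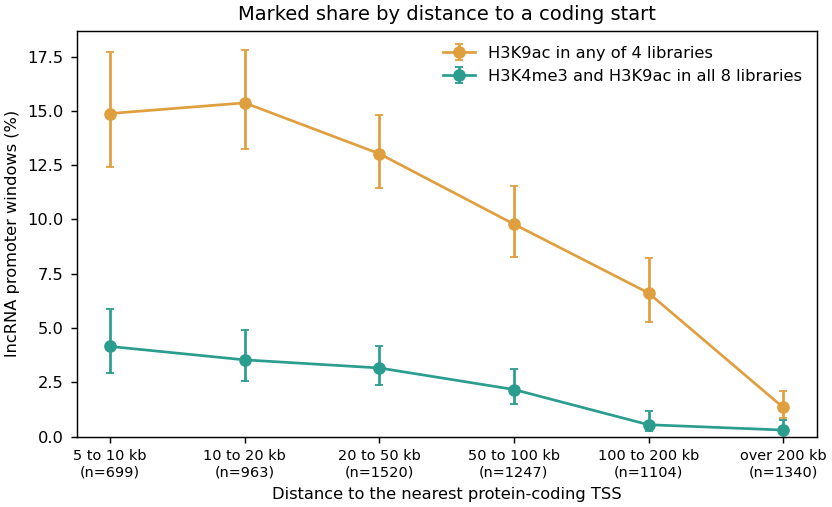
Percent of stand-alone lncRNA promoter windows (y axis) with H3K9ac in any of 4 libraries (orange) and with H3K4me3 and H3K9ac in all 8 libraries (green), by distance of the TSS to the nearest protein-coding TSS (x axis, with the number of windows). Bars are 95% Wilson intervals. The shares run from 14.9 and 4.15% at 5 to 10 kb to 1.34 and 0.299% beyond 200 kb.

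The base composition of the marked promoters differed from that of the unmarked ones. The observed to expected ratio of CG dinucleotides, which is high in CpG islands, had a median of 0.552 (quartiles 0.443 and 0.713) at the 148 promoters with both marks in all 8 libraries. It was 0.197 (0.137 and 0.272) at the 5830 promoters without a peak. GC content was 52.6% against 44.6%, and 11.9% against 21.8% of the window lay in repeats. Both marks in all 8 libraries were found at 0.0617% (0.0169 to 0.225) of windows with a ratio under 0.2 and at 40.9% (33.5 to 48.8) of the 154 windows with a ratio of 0.6 or more. Coding windows of the latter kind had both marks in 77.0% (76.1 to 77.9). The share was lower for the stand-alone lncRNA promoters in each of the 5 classes of the ratio, with intervals that did not overlap. The classes are broad and the last is open at the top, so CG content was not matched within them.

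**Figure D3:**
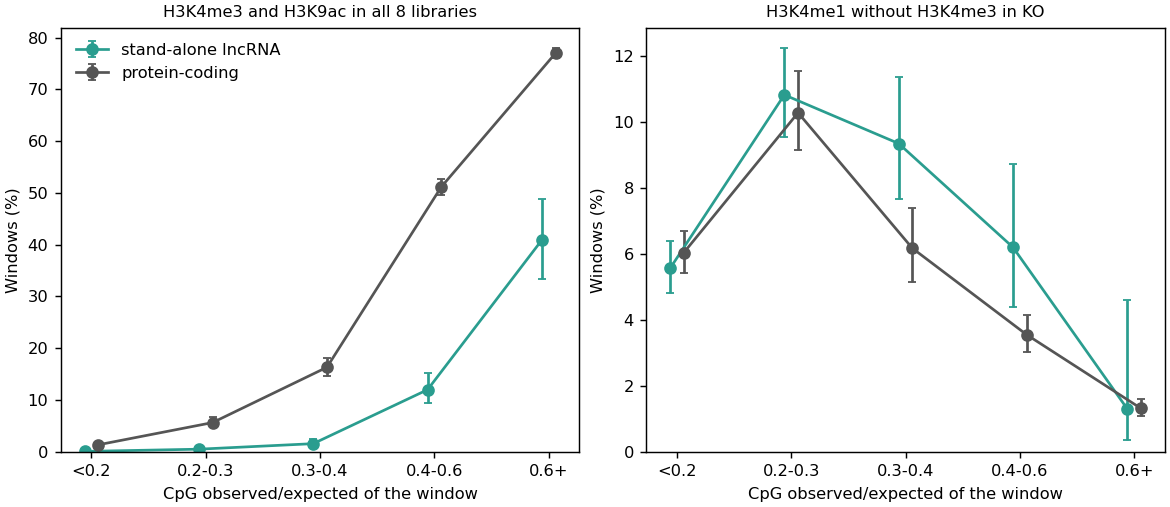
Percent of windows (y axes) by the observed to expected CG ratio of the window (x axes), for stand-alone lncRNA (green) and protein-coding promoters (grey), with 95% Wilson intervals. On the left, H3K4me3 and H3K9ac in all 8 libraries climb from 0.0617 to 40.9% for lncRNA and from 1.34 to 77.0% for coding promoters. On the right, H3K4me1 without H3K4me3 in KO peaks at 10.8 and 10.3% in the class from 0.2 to 0.3.

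Short words were counted on both strands of the stretch from 250 bases before to 50 bases after each TSS. CCGGAAG, the core bound by ETS factors such as Gabpa, stood in 12.8% of the 148 stretches with both marks in all 8 libraries, in 2.57% of the unmarked ones, in 21.6% of the coding promoters with both marks in all 8, and in 5.82% of the promoters of all annotated genes. The E-box CACGTG stood in 10.1% of the 148, 4.55% of the unmarked and 5.37% of all genes, and *Dleu2* is an example. Of the coding promoters with both marks in all 8, 11.2% held CACGTG. The TATA box word TATAAA was found in 9.46% of the 148, 16% of the unmarked and 17.1% of all genes, with *Dleu2* among those that hold it. In the same coding promoters the share with TATAAA was 6.23%. CCGGAAG and CACGTG each contain a CG dinucleotide, and the groups differ in CG and GC content, for which the counts were not matched. These matches describe the sequence and do not show binding.

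The best marked genes were ranked by the mean percentile over the 8 H3K4me3 and H3K9ac libraries among the 122 with H3K27ac in both genotypes. The highest mean, 94.0, belonged to *6720427I07Rik*, a lincRNA on chromosome 13 whose nearest coding TSS, *A830005F24Rik*, was 32.9 kb away. Its H3K4me3 fold enrichment was 10.03 and 10.4 in WT and 9.95 and 10.9 in KO, and its H3K9ac fold was 21.8 and 15.2 in WT and 28.4 and 20.8 in KO. The peak was compact, 513 to 706 bp wide for H3K4me3, with every summit between 125 and 199 bp downstream of the TSS. WT and KO values overlapped for both marks.

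*Dleu2*, the host of miR-15a and miR-16-1, followed with a mean of 93.5. Its H3K4me3 fold was 14.3 and 9.48 in WT and 7.98 and 7.35 in KO, and its H3K9ac fold was 38.9 and 33.2 in WT and 31.0 and 20.6 in KO. Both KO folds lay below both WT folds for each mark. Its H3K9ac percentiles had the same order, as did those of 24.7% of all annotated genes with H3K9ac in all 4 libraries. The share of all genes with this order of H3K4me3 is not given here. The H3K27ac fold of *Dleu2* went the other way, with 12 in WT and 17.3 in KO. The H3K9ac domain was 4286 to 4700 bp wide and its summits lay 470 to 598 bp downstream of the TSS, near the edge of the window at 500 bp. Over both marks the summit lay in the window in 4 of the 8 libraries. A second *Dleu2* start 33.6 kb downstream had peaks in all 8 libraries as well, and these were the peaks of *Gm27017*, which was also among the 12, with a mean of 90.9.

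*C030034I22Rik* (mean 92.0), *Spata5l1* (91.0), *Frmd8os* and *Neat1* (89.4 each), *Tmem250-ps* (88.5), *Lockd* (88.4), *1700096K18Rik* (87.9), *1810026B05Rik* (87.8) and *Gm36445* (87.8) completed the 12. *Neat1*, the scaffold of paraspeckles, and the divergent *Frmd8os* shared the same H3K4me3, H3K9ac and H3K27ac peaks. Their H3K9ac fold was 32.5 and 30.2 in WT and 33.0 and 32.0 in KO, and the *Neat1* domain spanned 9291 to 10702 bp. The H3K4me3 summits of *Neat1* lay 867 to 1584 bp inside the gene, beyond the window. *Lockd*, transcribed downstream of the cell cycle inhibitor gene *Cdkn1b*, had H3K9ac folds of 15.9 and 18.8 in WT and 19.3 and 26.4 in KO. Both KO folds of *Lockd* thus lay above both WT folds. The H3K9ac percentiles of *Lockd* had the same order, as did those of 8.44% of all annotated genes with H3K9ac in all 4 libraries. The *Lockd* summits for H3K9ac lay 1896 to 1933 bp upstream of the TSS. *1810026B05Rik*, also called *Chaserr*, lies upstream of *Chd2* and had H3K9ac folds of 24.2 and 30.4 in WT and 18.2 and 26.8 in KO. *Spata5l1* and *Tmem250-ps* are coding genes in RefSeq, with a RefSeq coding TSS 0 and 15 bp away. In all, 79 of the 6873 and 10 of the 148 lay within 5 kb of a RefSeq coding TSS.

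**Figure D4:**
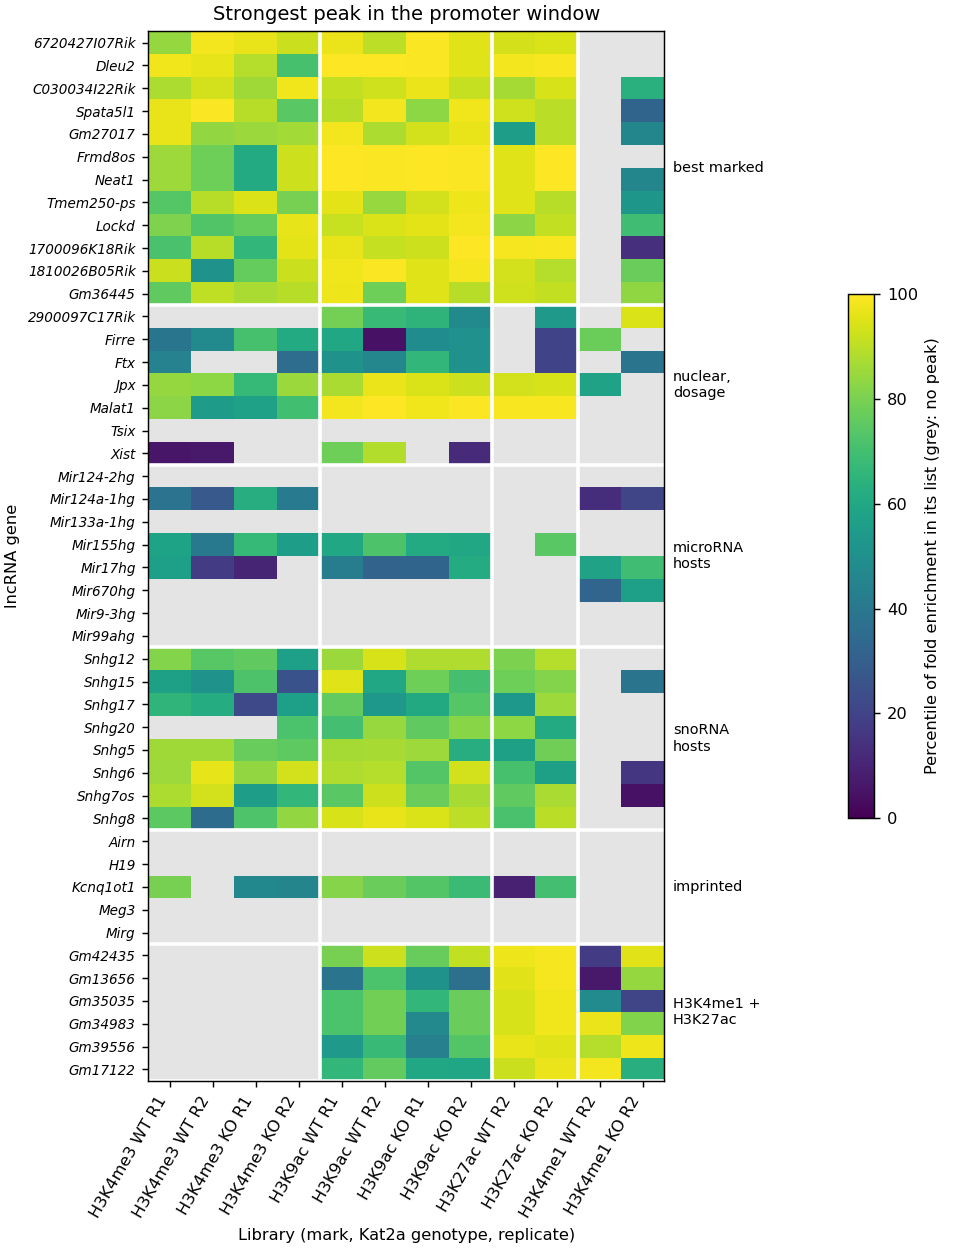
Percentile of the fold enrichment of the strongest peak in the promoter window among all peaks of its own list (color, 0 to 100; grey, no peak), for named stand-alone lncRNA genes (rows) in the 12 libraries used (columns). The best marked genes and 7 of the 8 genes listed as snoRNA hosts by symbol are filled across the first 8 columns. The bottom 6 genes have H3K27ac and H3K4me1 and no H3K4me3.

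The lists of well known lncRNAs differed in how many of their members were marked, beside 2.15% of all stand-alone lncRNA promoters with both marks in all 8 libraries. Of 8 genes listed as snoRNA hosts by their Snhg symbol, 7 had both marks in all 8 libraries. They were *Snhg5*, *Snhg6*, *Snhg7os*, *Snhg8*, *Snhg12*, *Snhg15* and *Snhg17*. Introns of snoRNA hosts release snoRNAs for ribosomal RNA modification, but *Snhg7os* is by its symbol the opposite-strand transcript of *Snhg7* and not the host itself. *Snhg20* had 5 of 8 at its outermost start and 8 of 8 at starts 456 to 794 bp further on. All 8 genes of this list had H3K27ac in both genotypes. *Snhg6* had H3K4me3 folds of 10.3 and 9.48 in WT and 7.27 and 11.2 in KO, so the genotypes overlapped.

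Of 8 nuclear and dosage RNAs, 4 had both marks in all 8 libraries, 3 had some and *Tsix*, the antisense of *Xist*, had none. *Malat1*, a nuclear speckle RNA, had H3K9ac folds of 25 and 38.1 in WT and 23.0 and 31.4 in KO. These summits lay 588 to 616 bp upstream of the annotated start. *Jpx*, an activator of *Xist*, had H3K9ac folds of 12.8 and 22.1 in WT and 17.4 and 18.0 in KO, and *Firre* had H3K4me3 folds of 4.34 and 4.74 in WT and 5.89 and 6.27 in KO. *Ftx*, which lies in the same X-inactivation center, had both marks in all 8 libraries at starts 6836 to 6955 bp downstream of its outermost one and in 6 at the latter. *2900097C17Rik*, the mouse *Norad*, had H3K9ac folds of 9.06 and 6.97 in WT and 5.88 and 4.69 in KO and no H3K4me3 peak.

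*Xist*, the RNA that coats the inactive X chromosome of female cells, was marked more in WT. Its TSS is at position 103483254 of chromosome X. The H3K9ac fold was 8.60 and 14.3 in WT, with no peak in KO replicate 1 and a fold of 2.97 in KO replicate 2. H3K4me3 had folds of 2.79 and 2.97 in WT and no peak in KO. The *Xist* H3K9ac summits of WT lay 1125 and 1139 bp inside the gene. The Y-linked promoters differed the other way between the genotypes, with H3K9ac folds for *Uty* of 3.62 in WT replicate 1, no peak in WT replicate 2, and 7.75 and 9.62 in KO.

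Of 9 microRNA hosts, *Dleu2* and *Mir155hg* had both marks in all 8 libraries, *Mir17hg* had 7 of 8, *Mir124a-1hg* had 4 and 5 had none. *Mir155hg*, the source of miR-155, had H3K4me3 folds of 6.12 and 4.43 in WT and 5.56 and 5.74 in KO, H3K9ac folds of 4.43 and 8.09 in WT and 5.25 and 6.16 in KO, and H3K27ac in KO alone at 6.14. *Mir17hg*, which encodes the miR-17-92 cluster, had WT folds for H3K9ac of 3.32 and 3.61 and KO folds of 3.28 and 6.42. *Mir124a-1hg*, host of a neuronal microRNA, had H3K4me3 folds of 4.27 and 3.91 in WT and 5.21 and 4.53 in KO on a CG-rich promoter, and neither H3K9ac nor H3K27ac. *Mir670hg* had no H3K4me3 or H3K9ac at its outermost start and both marks in all 8 libraries at a start 86003 bp downstream.

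Of 5 imprinted lncRNAs, *H19*, *Meg3*, *Mirg* and *Airn* had no H3K4me3 or H3K9ac peak. *Kcnq1ot1*, which silences its neighbors on the paternal chromosome, had 7 of 8, with H3K9ac folds of 10.1 and 9.56 in WT and 7.57 and 7.84 in KO. Of 14 lncRNAs on a mixed list that includes blood, Hox and p53 related genes, 11 had neither mark at the outermost start. *Hotair* and *Halr1* of the Hox clusters were among them. So were *Bvht*, *Carmn*, *Dnm3os*, *Miat*, *Rmst*, *Sox2ot* and *Wincr1*, so the count does not describe blood, Hox and p53 lncRNAs as a group. *Dancr* had both marks in all 8 libraries, *Pvt1* had peaks in 7 of the 8 and *Trp53cor1*, also called lincRNA-p21, in 4. *Gm14005*, also called *Morrbid*, which restrains *Bcl2l11* in short-lived myeloid cells, had no peak of these marks at its outermost start. At its cluster of starts 73399 to 73872 bp downstream both marks were present in all 8 libraries, with H3K9ac folds of 8.53 and 25.2 in WT and 13.8 and 25.1 in KO.

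The second question was whether loss of the acetyltransferase Kat2a went with less H3K9ac at these promoters. The share with H3K9ac was 7.48 ± 0.165% in WT and 6.13 ± 0.175% in KO (SD, n = 2 each). The difference of -1.35 percentage points had p = 0.333 in the two-sided exact permutation test, the smallest that 2 against 2 libraries can give, so no difference could pass a threshold of 0.05. Both WT shares lay above both KO shares. Coding promoters differed by -1.70 points. Set against the coding share of the same library, the lncRNA share was 15.1 and 15.1 per 100 in WT and 12.7 and 12.9 per 100 in KO (exact permutation p = 0.333). The WT H3K9ac lists were also longer, and with equal numbers of peaks in each list the difference in share was -0.68 points and the ratios were 13.6 and 14.1 per 100 in WT and 12.7 and 12.7 in KO. In pooled tissue, fewer cells of a type and less of a mark per cell cannot be told apart.

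The share with H3K4me3 was 4.18 ± 1.66% in WT and 3.83 ± 0.165% in KO. The difference of -0.356 points was smaller than the spread between the WT replicates (exact permutation p = 1) and took the sign of 1 library, since without WT replicate 1 it was 0.815. For H3K27ac and H3K4me1 there was 1 library per genotype and no test. H3K27ac was present in both genotypes at 341 promoters, in KO and not WT at 216, or 3.14% of members beside 3.75% of all annotated genes, and in WT and not KO at 27, or 0.393% beside 0.269%. H3K4me1 was in both at 269, in KO and not WT at 407 (5.92% beside 11.6%), and in WT and not KO at 88 (1.28% beside 2.27%). The longer lists of both marks were those of KO.

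H3K9ac peaks in both WT libraries and neither KO library were found at 36 promoters, 0.524% of the members beside 0.415% of all annotated genes. The reverse was found at 8, or 0.116% beside 0.108%. Among windows with H3K9ac in both libraries of either genotype, these were 36 of 443 members (8.13%) beside 1.71% of all such windows, and 8 of 443 (1.81%) beside 0.447%. The peaks behind the 36 were weak, with a median of the mean percentile of 35.2. Of the 36, 21 had no H3K4me3 in any library, 12 had H3K27ac in WT and 20 had it in KO, where the list was longer. Among the 132 coding promoters with H3K9ac in both WT and no KO libraries, the counts were 33, 10 and 30. With 1 library left out, 59 to 111 members had H3K9ac in WT only and 16 to 34 in KO only. With equal numbers of peaks in each list these numbers were 28 and 12.

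*Gm26660*, 79.6 kb from *Zmiz1*, had the highest ranked H3K9ac peaks of the 36, with folds of 6.26 and 13.9 in WT. Their summits lay 1165 and 1150 bp inside the gene, and at a second start 974 bp downstream H3K9ac was present in all 4 libraries, with folds of 6.47 and 12.9 in KO. The absence of a KO peak there thus holds for the outermost start only. *Gm32591*, 48.8 kb from the hexokinase gene *Hk2*, had H3K9ac folds of 4.70 and 9.43 in WT and no H3K9ac peak in KO, while H3K27ac was 3.93 in WT and 8.98 in KO. Its H3K9ac summits lay 293 and 897 bp downstream of the TSS. *1700030C10Rik* had H3K9ac folds of 4.83 and 4.51 in WT, with summits 263 and 276 bp downstream of the TSS, and no peak of any other mark. *Gm15283*, antisense in *Gm49321* and 12.1 kb from *Hif1a*, had folds of 3.54 and 5.85. *AC132251.1*, antisense in *Dnmbp*, and *C030034L19Rik* completed the 6 with the highest percentiles.

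The 6 with the highest percentiles of the 8 with H3K9ac in both KO and no WT libraries had low folds throughout. The first was *Gm17023*, with 3.28 and 4.11 in KO. *Gm35154*, 70.2 kb from *Prdm1*, had 2.85 and 3.67, and *Gm17276*, *AC121263.1*, *Gm16299* and *AC157910.4* had 2.26 to 3.71. For a pair of these genes the absence in WT depended on the start used. At a start of *Gm17276* 336 bp downstream H3K9ac was present in all 4 libraries, with folds of 2.94 and 4.35 in WT. At a start of *Gm35154* 1147 bp downstream WT replicate 1 had a fold of 2.13. With peaks limited to q of at most 0.05, the count was 3 in place of 8.

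H3K4me3 in both WT and no KO libraries was found at 8 promoters, 0.116% beside 0.186% of all annotated genes, and the reverse at 2, 0.0291% beside 0.108%. Among windows with H3K4me3 in both libraries of either genotype, these were 3.38% of 237 members beside 0.815% of all such windows, and 0.844% beside 0.475%. *1810006J02Rik* had H3K4me3 folds of 6.86 and 3.48 in WT and none in KO, while H3K9ac was present in all 4 libraries, at 5.32 and 9.88 for WT, then 6.12 and 7.94 for KO. *Gm14487* had H3K4me3 folds of 4.03 and 3.79, and *Gm49579* 5.68 and 2.94. *1810012K08Rik* had 8.33 and 3.40, with a RefSeq coding TSS at 997 bp. Its peak in WT replicate 1 was the one counted for *Tmem250-ps*, with a summit 1354 bp downstream of the *1810012K08Rik* TSS and outside its window, and *Tmem250-ps* had H3K4me3 in all 4 libraries, with KO folds of 9.39 and 8.48. The pair with H3K4me3 in KO and not WT were *1700028I16Rik*, at 3.60 and 4.53, and the X-linked *5730405O15Rik*, at 3.93 and 3.14. H3K9ac of *5730405O15Rik* was 6.61 and 6.07 in WT and 10.1 and 8.58 in KO. When the summit had to lie in the window, the order turned to 3 in WT only and 6 in KO only, and with 200 bp of the window covered it was 5 and 5. When 1 library was left out, the counts of H3K4me3 in WT only were 15 to 87 and in KO only 3 to 40.

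Where H3K9ac was present in all 4 libraries, its percentile within each list was set side by side. The WT lists were longer, with 33605 and 31677 peaks against 27657 and 28861 in KO, and a percentile depends on how many weak peaks its list holds. Of the 319 promoters, 83 (26%) had both KO percentiles below both WT percentiles, beside 24.7% of all annotated genes with H3K9ac in all 4. The opposite order was seen at 25 (7.84%) beside 8.44%. Both shares lay near those of all genes. The median KO minus WT difference was -4.37 percentile points for the members and -2.29 for all genes. With the 27657 peaks of lowest p-value in each list this order was not kept. Of 305 promoters 40 (13.1%, beside 15.9% of all genes) then had both KO percentiles below both WT percentiles and 46 (15.1% beside 14.6%) above, and the median difference was -0.24 points for the members and -0.12 for all genes. The lower KO percentiles of the group and the shorter KO lists cannot be told apart.

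**Figure D5:**
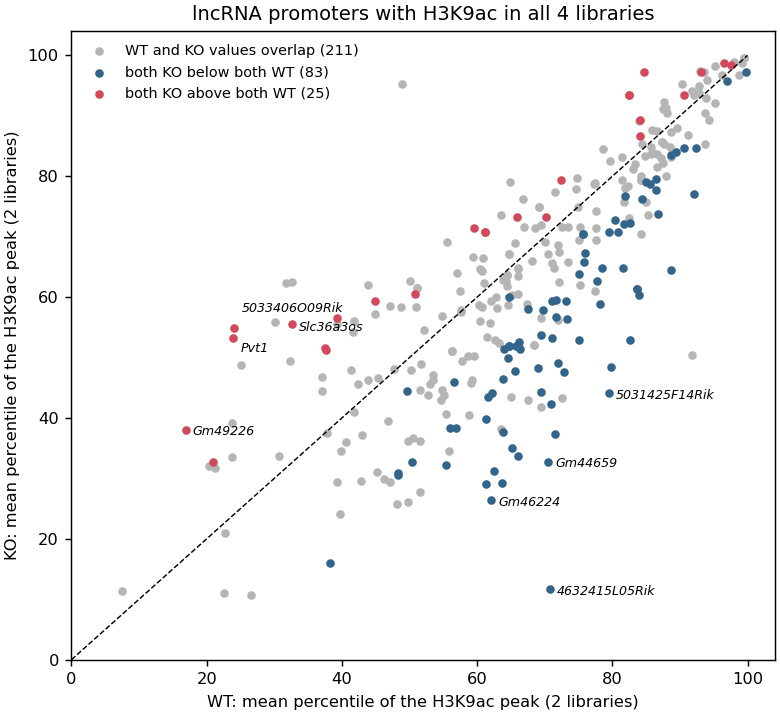
Mean percentile of the H3K9ac peak in 2 KO libraries (y axis) against 2 WT libraries (x axis) for the 319 stand-alone lncRNA promoters with H3K9ac in all 4, each a point, with the line of equality dashed. In 83 (blue) both KO values lie below both WT values, in 25 (red) above, and in 211 (grey) they overlap, and *4632415L05Rik* lies farthest below the line. The WT lists were longer, and with equal numbers of peaks the counts were 40 below and 46 above.

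*4632415L05Rik*, a lincRNA 62.2 kb from *Cp*, had the largest difference, -59.1 percentile points. Its H3K9ac fold was 7.21 and 7.11 in WT and 2.18 and 3.41 in KO. Its H3K4me3 fold was 4.87 and 7.27 in WT and 5.92 and 8.06 in KO, so H3K4me3 overlapped between the genotypes while H3K9ac did not. *Gm44659* had H3K9ac folds of 7.38 and 6.81 in WT and 2.79 and 5.02 in KO, and *Gm46224* 5.44 and 5.4 in WT and 2.60 and 4.57 in KO. *5031425F14Rik* had 7.71 and 11.9 in WT and 2.89 and 8.67 in KO, where the folds overlap and the percentiles do not. With equal numbers of peaks the difference of *4632415L05Rik* was -55.6 points, and *Gm44659* (-33.6) and *Gm46224* (-30.2) also kept both KO values below both WT values, while those of *5031425F14Rik* overlapped.

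In the other direction *5033406O09Rik* had H3K9ac folds of 2.80 and 3.35 in WT and 4.54 and 5.43 in KO, a difference of 30.8 percentile points. *Pvt1*, which lies next to *Myc*, had 3.19 and 2.79 in WT and 5.75 and 4.29 in KO. The 4 summits of *Pvt1* lay 37 to 157 bp downstream of its TSS. *Slc36a3os* had 3.59 and 3.09 in WT and 5.34 and 4.88 in KO, and *Gm49226*, antisense in *App*, had 3.02 and 1.87 in WT and 3.71 and 3.87 in KO. Under equal numbers of peaks *5033406O09Rik* and *Slc36a3os* kept both KO values above both WT values, and *Pvt1* and *Gm49226* no longer had a peak in all 4 lists. These genes were chosen for their differences, so the values are descriptions and carry no test.

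Enhancer-type marking was the other pattern at these promoters. H3K4me1 without H3K4me3 was found at 276 promoters (4.02%) in WT and 522 (7.59%) in KO. The shares were 2.03 and 4.28% for coding promoters. For lncRNAs near a coding TSS they were 3.81 and 8.02%, close to those of the stand-alone promoters. The WT count was 117 in place of 276 when peaks were limited to q of at most 0.05, and 41.7% of the WT H3K4me1 peaks at members passed that value, against 90.7% in KO. At 78 promoters (1.13%, 0.910 to 1.41) both H3K4me1 and H3K27ac were present in both genotypes and H3K4me3 in no library. That share was 0.337% for coding promoters and 0.916% for lncRNAs near a coding TSS. Of the 78, 33 had H3K9ac in all 4 libraries, 42 in 1 to 3 and 3 in none.

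The 78 promoters were poor in CG dinucleotides, with a median observed to expected ratio of 0.218 (quartiles 0.191 and 0.259) against 0.552 for the 148 with both promoter marks. GAGGAAGT, a word bound by the myeloid factor Spi1 (PU.1), stood in 11.5% of the 78, in 3.38% of the 148, in 2.68% of the unmarked and in 2.92% of all genes, and the number behind the first share was 9.

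*Gm42435*, antisense within *Cdk6*, a cell cycle kinase gene, had the highest H3K27ac percentile of the 78. Its H3K27ac fold was 11.4 in WT and 16.5 in KO, and its H3K9ac fold was 9.18 and 17 in WT and 8.55 and 16.9 in KO. The H3K9ac summits lay 1436 to 2380 bp upstream of the TSS. *Gm13656*, 25.5 kb from *Nfe2l2*, had H3K27ac folds of 10.2 in WT and 16.5 in KO. The divergent *Gm35035* and *Gm34983*, 195 and 194 kb from *Dusp6*, shared an H3K27ac peak of 9.54 in WT and 15.0 in KO. *Gm39556*, 25.6 kb from *Ly6e*, had 10.9 and 12.4, and *Gm17122*, antisense in *Coro1c*, had 8.88 and 14.2. For *Gm39556* H3K9ac was 3.92 and 7.00 in WT and 3.74 and 9.14 in KO. The H3K27ac fold of each of the 6 was higher in KO, in 1 library per genotype from lists of unequal length. The median H3K27ac fold was higher in KO as well, with 4.80 in WT and 5.20 in KO at marked stand-alone promoters. At marked coding promoters it was 6.37 and 8.22. Each median is over the windows marked in that library, which were not the same windows in WT and KO. How many of all windows had a higher KO fold is not given here.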

How the data were processed

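The 16 deposited peak lists, 1 for each ChIP library, were used. The 16 input libraries were not analysed here. The authors aligned reads to mm10 with BWA and called peaks with MACS2, at q of at most 0.05 by the methods, although the deposited lists also hold weaker peaks. Versions are not given in the sources used here. Per library, each deposited list gives a score, the fold enrichment at the summit as a ratio, and both the p-value and the q-value as −log10. The authors left out 1 H3K27ac and 1 H3K4me1 replicate without naming it. Replicate 1 of both marks was left out of the comparisons, and its values are in the closing section. There were no per-sample columns outside the samples.

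TSS came from GENCODE M21, the 5′ end of each gene, and coding TSS from all transcripts of coding genes. Windows were intersected with peaks at 1 bp or more and the strongest peak gave the level. Printed sequences and CG, repeat and word counts came from the RefSeq GRCm38.p6 genome. The sequences of some named promoters are not reported here. Shares have Wilson intervals at 95%, a count of 0 allows 3 counts, and no interval covers more than counting error. Depth is unknown without read counts. Shares were compared over libraries with two-sided exact permutation tests. Windows were not treated as replicates. Adjustment for multiple tests was not applied, since no exact test could pass 0.05.

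Named genes were the 12 with the highest mean percentile among those with H3K4me3, H3K9ac and H3K27ac in every library used, 6 per direction for H3K9ac and 4 for H3K4me3 present in both libraries of 1 genotype and none of the other, 6 enhancer-type promoters by H3K27ac, 4 per direction by H3K9ac difference among those whose WT and KO percentiles do not overlap, and 5 lists of known lncRNAs. The Y-linked genes and the other starts of named genes were chosen after the values were seen. The members, lists and rules were chosen with earlier results of these data known. Alternatives were q of at most 0.05, summits in the window, 200 bp covered, 500 bp either side, every transcript TSS, more than 10 kb from coding TSS, TSS outside coding gene bodies, equal numbers of peaks, each library left out, and a replicate block. Chosen after seeing the data were the H3K9ac percentiles with equal numbers of peaks and at q of at most 0.05, the distance from RefSeq coding TSS and leaving out chromosome Y or chromosomes X and Y. Python 3.11.15, NumPy 2.4.6, SciPy 1.17.1 and matplotlib 3.10.9 were used, and counting of overlaps on simulated windows and peaks was checked with bedtools 2.31.1 and was equal in 100 of 100 comparisons.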

Additional observations from a re-analysis of the deposited data

Results flagged for a closer look

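Replicate 1 of H3K27ac and H3K4me1 was used in no comparison, and each of its 4 lists held peaks at the stand-alone lncRNA promoters. H3K27ac replicate 1 marked 1.79% of the promoters in WT (123, of which 27 were also marked in replicate 2) and 0.189% in KO (13, of which 2). H3K4me1 replicate 1 marked 0.640% in WT (44, of which 29) and 1.60% in KO (110, of which 16). A count of 0 would allow up to 0.0436%, and the coding promoters of the same lists were marked at 9.10, 0.210, 0.857 and 1.20%. The median peak at the lncRNA promoters was 48 or 49 bp wide in these lists, and 0% of these peaks passed q of at most 0.05, against 94.3 and 95.9% for H3K27ac and 41.7 and 90.7% for H3K4me1 in WT and KO replicate 2.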

How the results depend on the processing

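The main results were recomputed under the alternatives in 193 values. Of these, 168 kept their direction or stayed within 1.5 times the main count, 24 counts moved by over 1.5 times and 1 reversed. No exact test could pass 0.05, so for the tested results only the direction could change. The reversed one was the H3K4me3 share, KO minus WT, at 0.815 points without WT replicate 1, with a range of -1.53 to 0.815 over the 4 libraries left out in turn. For the H3K9ac share this range was -1.47 to -1.22, and for both marks in all 8 libraries the count was 149 to 182, with 1 library fewer required. Promoters with H3K9ac in both WT and no KO libraries numbered 59 to 111 and the reverse 16 to 34, and for H3K4me3 the numbers were 15 to 87 and 3 to 40. These counts ask for 1 library fewer and so cannot be smaller than those of all libraries. With peaks at q of at most 0.05, H3K9ac in KO only numbered 3 and H3K4me1 without H3K4me3 in WT 117. With the summit in the window, H3K4me3 in WT only numbered 3 and in KO only 6, and with 200 bp covered 5 and 5. Without chromosomes X and Y, H3K4me3 in KO only numbered 1. The cause of these moves was not tested. With equal numbers of peaks, promoters with both KO H3K9ac percentiles below both WT percentiles numbered 40 in place of 83 and those above 46 in place of 25, which turned their order, and at q of at most 0.05 they numbered 81 and 25. Over the alternatives that keep all libraries, both marks in all 8 libraries ranged from 112 with the summit in the window to 162 with every transcript TSS.

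With the replicate number as a block, KO minus WT was -0.356 points for H3K4me3 (exact sign-flip permutation p = 1) and -1.35 for H3K9ac (p = 0.5, exact, the smallest that 2 pairs allow). The labels do not say that a replicate number marks a shared batch, so the samples are taken to share a number only. The block changed no call. Of 656 values for 85 named genes, 629 stayed within the Wilson interval of the main value. That interval treats the 8 libraries as independent and is wide. A gene without a peak could not lose one under the stricter filters, so this count is a weak check. With the summit in the window *Neat1*, *Dleu2*, *Lockd*, *Frmd8os* and *Kcnq1ot1* had 4 of 8 libraries, *Xist* 2 and *Snhg20* 0. Depth limits all of these, since a missing peak in a list without read counts may be a weak one.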
